A study of Mus musculus with 6 samples.

Results

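The genes described here are the receptors, inhibitors and transcriptional effectors of the Wnt pathway in tail keratinocytes of mice with an epidermal knockout of Gpr161. They were taken as the rows of the deposited table whose symbol matched 1 of 46 listed names, without the Wnt ligands, and all 46 were found among 19618 genes. Of these, 45 passed the filter on low counts and were tested, and the exception was Fzd9. The mice were 4 months old, and tail epidermis gave 3 knockout and 3 control libraries. The knockout mice were K14cre+ and homozygous for the floxed Gpr161 allele, so that Cre was expressed under the keratin 14 promoter, which is active in basal keratinocytes and follicle epithelium. The controls carried floxed Gpr161 without K14cre per the labels, 1 mouse homozygous and 2 heterozygous. Since no control carried K14cre, effects of Cre itself and of the deletion cannot be told apart in this design. The Gpr161 protein sits on primary cilia and is known to hold Hedgehog signalling down.

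In the canonical Wnt pathway, a secreted Wnt protein binds a Frizzled receptor and an LRP coreceptor, Dishevelled proteins are recruited, and the destruction complex of Axin, APC and the kinase GSK3 no longer degrades beta-catenin. Beta-catenin then enters the nucleus and binds TCF/LEF factors, displacing corepressors of the Groucho/TLE family. In skin, this pathway is known for hair follicle formation and cycling and for the upkeep of basal keratinocytes, and several of its inhibitors are themselves induced by it as feedback.

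Libraries are called by the tags of the table's columns: knockout libraries are DE679, DE685, DE688, and control libraries are DE680, DE684, DE689, always in this order. Total estimated counts ranged from 17157864 to 25344399 per library. Levels are in CPM, counts scaled to library size with TMM (trimmed mean of M values) factors. Krt5, a keratin of basal keratinocytes, had 11196 to 15700 CPM and Krt10, a keratin of differentiating keratinocytes, 12432 to 25273 CPM, against 3.81 to 12.6 CPM for the dermal collagen gene Col1a1. Y-linked transcripts were found in DE685 and DE684, and the remaining 4 libraries had Xist transcripts. Counts of the whole Gpr161 gene did not separate the groups (28.8 ± 4.23 against 31.4 ± 1.10 CPM, SD, n = 3 each, edgeR quasi-likelihood adjusted p = 0.553), so they do not check the labels. Directions below therefore follow the labels, the libraries labelled knockout relative to those labelled control.

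Among the 45 genes tested, 3 rose in the knockout and 0 fell in edgeR's quasi-likelihood test, with a threshold of 0.05 on the adjusted p. Those that rose were Apcdd1, a membrane inhibitor of Wnt signalling, and the receptors Fzd1 and Fzd7. Over all 15422 genes tested, 1.6% passed this threshold in either direction, 1.24% higher and 0.357% lower, and the 3 rises are 6.67% of the members tested. At an unadjusted p under 0.05, 13 members differed (28.9%, against 19% of all genes), 11 of them higher and 2 lower, or 24.4% and 4.44%, against 9.9% and 9.1% of all genes. The groups did not overlap for 15 of the 45 members (33.3%), 11 with the knockout above and 4 with it below; over all genes this was 25.6%, with 12.8% above and 12.8% below. The median log2 fold change was 0.055 over the members tested and −0.0036 over all genes. With 3 libraries against 3, an exact permutation test of a single value cannot go below 0.1, so calls rest on the model across all genes. The labels do not say which libraries share a litter or a preparation. Each p-value sets the difference between the groups against the variation between these libraries, as estimated by that model.

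**Figure D1:**
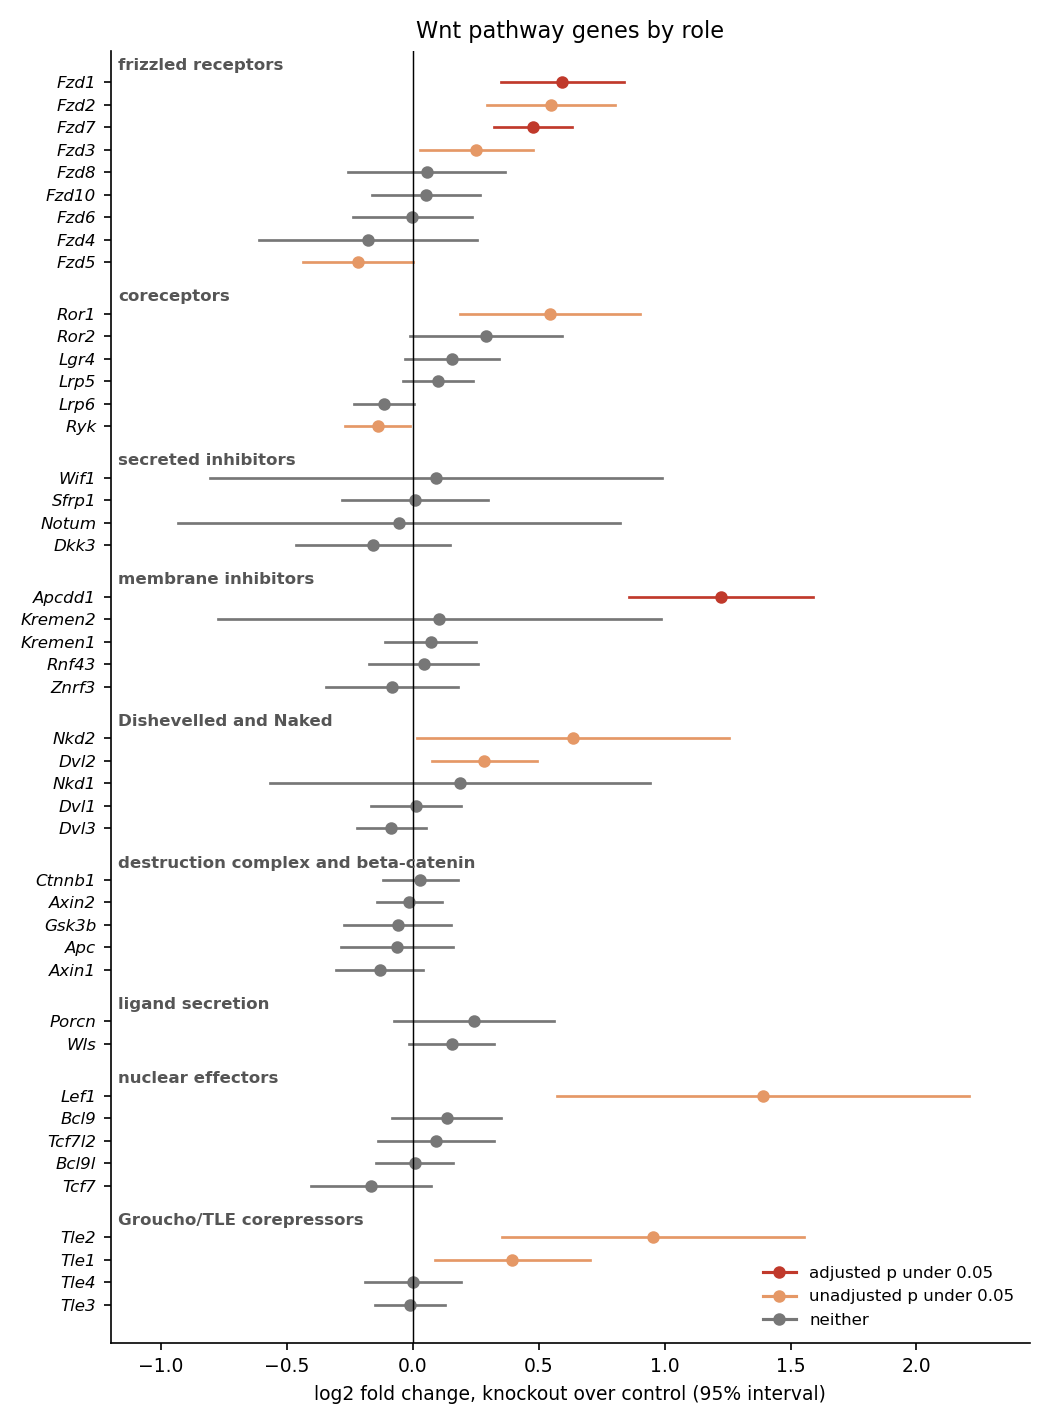
Log2 fold change (knockout over control, horizontal axis) with its 95% interval for the 45 genes tested, grouped by role. Fzd1, Fzd7 and Apcdd1 are in the colour for an adjusted p under 0.05, 10 others in that for an unadjusted p under 0.05, and the destruction complex genes lie close to 0.

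The promoters of both Frizzled genes that rose are shown because these genes, with Apcdd1, passed the test. The promoter of Apcdd1 is not shown here. Each sequence is the 250 bases before the RefSeq transcript start (GRCm38.p6), 5′ to 3′ on the strand of the gene; capitals mark a match to a TCF/LEF motif. Fzd1 is read from the minus strand of chr5:4758217-4758466 and Fzd7 from the plus strand of chr1:59481897-59482146.
Fzd1: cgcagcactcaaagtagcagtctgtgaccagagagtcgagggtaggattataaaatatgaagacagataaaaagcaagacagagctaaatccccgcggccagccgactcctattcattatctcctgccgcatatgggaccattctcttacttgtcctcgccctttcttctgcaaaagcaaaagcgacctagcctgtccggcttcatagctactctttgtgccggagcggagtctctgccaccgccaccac
Fzd7: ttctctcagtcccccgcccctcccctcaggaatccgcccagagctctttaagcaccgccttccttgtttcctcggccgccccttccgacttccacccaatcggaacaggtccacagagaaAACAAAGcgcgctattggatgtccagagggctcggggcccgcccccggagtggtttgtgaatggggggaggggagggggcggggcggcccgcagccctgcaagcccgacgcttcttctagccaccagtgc
Both strands were searched. The TCF/LEF motif was spelled CTTTGAA or, with the other last base allowed, CTTTGAT, and in its second form it was spelled CTTTGTA or, by the same rule, CTTTGTT. The motif of the GLI factors, effectors of Hedgehog signalling, was spelled TGGGTGGTC. The Fzd7 sequence held 1 TCF/LEF match, which begins 130 bases before the start and reads AACAAAG on the strand shown. The Fzd1 sequence held 0 matches to either motif. Of all 32851 promoters in the table, 14.8% held a TCF/LEF match and 0.225% a GLI match in a window of this length. The table held 30 of the 46 members in 38 promoters: 3 of the 30, Fzd7, Lef1 and Tcf7l2, had a TCF/LEF match and 0 had a GLI match. The percentages count promoters and the members are counted as genes, and no excess of matches among the members was tested. These matches are descriptions of the letters in this window.

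The Frizzled receptors are the seven-pass membrane proteins that bind Wnt ligands. Fzd7 (chromosome 1, 59482424 to 59486955, plus strand, GRCm38) had 141, 152 and 164 CPM in the knockout libraries and 111, 106 and 111 CPM in the control libraries. Every knockout library was above every control library, and the controls lay close together. The means were 152 ± 11.2 and 109 ± 2.72 CPM (SD, n = 3 each), which gave 0.48 as log2 fold change (SE 0.07, 95% interval 0.32 to 0.63, edgeR adjusted p = 0.0184). Fzd1 (chromosome 5, 4753839 to 4758035, minus strand) had 112, 93.8 and 122 CPM in the knockout and 74.4, 66.0 and 77.1 CPM in the control, in the same library order. The groups again did not overlap, and the lowest knockout library was DE685. The means were 109 ± 14.3 and 72.5 ± 5.76 CPM (SD, n = 3 each), which gave 0.59 as log2 fold change (SE 0.11, 95% interval 0.35 to 0.84, edgeR adjusted p = 0.0412). Without DE685 Fzd1 passed (adjusted p = 0.0293), and it did not pass without DE679, DE688, DE680, DE684 or DE689 (adjusted p from 0.0866 to 0.156). Fzd7 passed without DE679 (adjusted p = 0.0275) and in none of the other 5 fits with 1 library left out, namely without DE685, DE688, DE680, DE684 or DE689 (adjusted p from 0.0509 to 0.0669).

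Fzd2, which with Fzd1 and Fzd7 forms a subfamily of closely related sequence, did not pass the threshold. It had 26.0, 24.5 and 30.3 CPM in the knockout against 18.2, 16.9 and 20.2 CPM in the control. The groups did not overlap, and the log2 fold change was 0.55 (SE 0.11, 95% interval 0.29 to 0.80, edgeR adjusted p = 0.0606). Fzd2 passed with the DESeq2 Wald test (adjusted p = 0.00262) and with a covariate for the presence of Y-linked transcripts (adjusted p = 0.0317). Fzd3, known for planar polarity and axon guidance, had 21.8, 26.6 and 25.2 CPM against 20.01, 20.05 and 21.7 CPM, a log2 fold change of 0.25 (edgeR adjusted p = 0.222). The lowest knockout library, DE679, lay just above the highest control library. Fzd5 had 29.8, 26.3 and 28.3 CPM against 30.0, 32.0 and 36.3 CPM, a log2 fold change of −0.22 (edgeR adjusted p = 0.262), with the knockout libraries below the controls by a narrow margin.

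The other Frizzled genes that were tested had overlapping groups. Fzd6, a receptor known for the orientation of hair follicles, had 142, 118 and 123 CPM in the knockout and 145, 117 and 121 CPM in the control, with a 95% interval of −0.24 to 0.24 on the log2 scale. Fzd10, Fzd8 and Fzd4 had log2 fold changes of 0.05, 0.05 and −0.18, with adjusted p of 0.799, 0.863 and 0.643 (edgeR). Fzd9 was at 4, 2 and 3 counts in the knockout and 1, 2 and 1 in the control, where 3 counts are 0.117 to 0.173 CPM, so that no fold is given. Such limits cover counting error only.

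Levels of different receptors were compared per kilobase of annotated exon (GENCODE M21). In the control, Fzd6 had 26.5 ± 3.13, Fzd7 24.1 ± 0.601, Fzd10 22.6 ± 0.998 and Fzd1 17.3 ± 1.37 CPM per kb (SD, n = 3 each). Of these, Fzd6, Fzd7 and Fzd10 lay within each other's spread of libraries or close to it, and Fzd1 lay below all of them. In the knockout, Fzd7 had 33.6 ± 2.47 CPM per kb, above Fzd6 at 26.5 ± 2.65, Fzd1 at 26.0 ± 3.41 and Fzd10 at 23.4 ± 2.87 CPM per kb, and the last 3 overlapped. The other 6 genes had at most 8.26 CPM per kb in any library, in the order Fzd2, Fzd5, Fzd8, Fzd3, Fzd4 and Fzd9 by their mean over all libraries. Summed over the 10 genes, Frizzled transcripts were at 131, 119 and 129 CPM per kb in the knockout and 108, 101 and 107 CPM per kb in the control. Fzd1, Fzd2 and Fzd7 together, grouped after their values were seen, made up 49.6%, 52.5% and 57.0% of that sum in the knockout and 43.5%, 43.5% and 45.2% in the control.

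**Figure D2:**
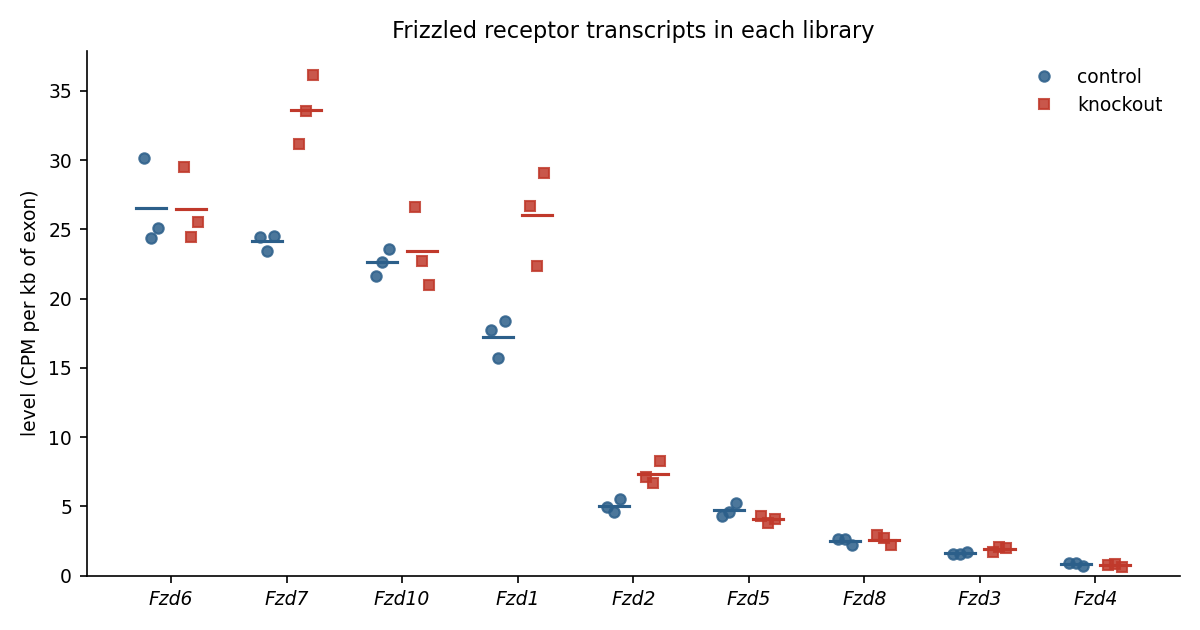
Level of each tested Frizzled gene (vertical axis, CPM per kb of exon) in the 3 control libraries (circles) and 3 knockout libraries (squares), with horizontal lines at the group means. Fzd7 and Fzd1 are above their controls in every knockout library, while Fzd6 and Fzd10 overlap.

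Among the coreceptors and other Wnt receptors, 0 of 6 passed the threshold. LRP5 and LRP6 are the coreceptors of the canonical pathway. Lrp5 had 184, 166 and 183 CPM in the knockout and 170, 162 and 166 CPM in the control (log2 fold change 0.10, edgeR adjusted p = 0.403), and Lrp6 had a log2 fold change of −0.11 (edgeR adjusted p = 0.279). Ror1, a receptor tyrosine kinase for Wnt5a, had 23.1, 25.9 and 18.1 CPM against 14.5, 17.7 and 13.7 CPM. The groups did not overlap, but DE688 and DE684 lay close to each other. The log2 fold change was 0.54 (SE 0.15, edgeR adjusted p = 0.131), and it passed with DESeq2 (adjusted p = 0.0318). Its relative Ror2 had a log2 fold change of 0.29 with overlapping groups (edgeR adjusted p = 0.278). Ryk, another Wnt-binding receptor of the tyrosine kinase family, had 126, 137 and 135 CPM against 145, 149 and 145 CPM, lower in every knockout library, with a log2 fold change of −0.14 (edgeR adjusted p = 0.236). Lgr4, a receptor for R-spondins, which protect Frizzled proteins from removal, had a log2 fold change of 0.16 with overlapping groups (edgeR adjusted p = 0.331).

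Apcdd1 had the largest change among the 3 members that passed. The protein is a membrane glycoprotein that inhibits Wnt signalling, is known as a Wnt target and is mutated in a hereditary hair loss. Apcdd1 (chromosome 18, 62922231 to 62961179, plus strand) had 110, 144 and 162 CPM in DE679, DE685 and DE688 and 51.3, 57.7 and 69.0 CPM in DE680, DE684 and DE689. The lowest knockout library was well above the highest control library. The means were 139 ± 26.5 and 59.3 ± 8.94 CPM (SD, n = 3 each), 2.33-fold apart, with 1.22 as log2 fold change (SE 0.16, 95% interval 0.86 to 1.59, edgeR adjusted p = 0.0147). It passed without DE679, DE688 or DE689 (adjusted p from 0.0102 to 0.0478) and just missed without DE685 (0.0509), DE684 (0.0507) or DE680 (0.0638). Among the 4 libraries with Xist transcripts its log2 fold change was 1.17 with an adjusted p of 0.0953.

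The other membrane inhibitors did not pass. Kremen1, which removes LRP6 from the membrane together with Dickkopf proteins, had 145, 148 and 162 CPM in the knockout and 151, 131 and 153 CPM in the control, with a 95% interval of −0.11 to 0.25 on the log2 scale. Rnf43 and Znrf3 encode ubiquitin ligases that remove Frizzled proteins and are feedback targets of the pathway. Their log2 fold changes were 0.04 and −0.08, both with overlapping groups (edgeR adjusted p = 0.841 and 0.732). Kremen2 was low, with 2.11 to 6.03 CPM over the libraries.

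Of the secreted inhibitors, 0 of 4 passed, and all 4 had overlapping groups. Sfrp1, which binds Wnt proteins outside the cell, had 125, 106 and 154 CPM in the knockout and 131, 120 and 132 CPM in the control (95% interval −0.28 to 0.30 on the log2 scale). Dkk3, a member of the Dickkopf family, had 64.8 to 79.7 CPM in the knockout and 64.4 to 89.6 CPM in the control. Wif1 and Notum were low, with 1.19 to 3.82 and 0.809 to 1.99 CPM, and the intervals of their log2 fold changes ran from −0.81 to 0.99 and from −0.93 to 0.82.

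Inside the cell, the Dishevelled and Naked genes gave 0 of 5 past the threshold. Dvl1, 1 of 3 Dishevelled genes, had 101, 97.9 and 110 CPM in the knockout and 111, 94.1 and 101 CPM in the control. Dvl2 had 37.2, 39.9 and 40.8 CPM against 34.6, 28.7 and 33.4 CPM, without overlap, a log2 fold change of 0.28 (edgeR adjusted p = 0.158). Exons of Dvl2 overlap those of Acadvl on the opposite strand, and whether the counting used the strand is not given in the sources used here, so its counts are uncertain to that extent. Nkd2, an antagonist that binds Dishevelled, had 4.24, 4.97 and 8.28 CPM against 4.04, 3.47 and 3.77 CPM. DE688 stood above the other knockout libraries; the log2 fold change was 0.64 (edgeR adjusted p = 0.255) and 0.29 without DE688. Nkd1, also a feedback target, overlapped between groups with a log2 fold change of 0.19 (edgeR adjusted p = 0.797). Dvl3 overlapped as well, with a log2 fold change of −0.09 (edgeR adjusted p = 0.469).

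In the destruction complex and beta-catenin, 0 of 5 genes passed, and the groups overlapped for all 5. Axin2, a scaffold of the complex whose transcription is a widely used readout of canonical Wnt activity, had 51.8, 51.0 and 52.1 CPM in the knockout and 51.5, 52.6 and 52.3 CPM in the control. The libraries differed little from each other, and the means were 51.6 ± 0.572 and 52.1 ± 0.592 CPM (SD, n = 3 each). Their log2 fold change of −0.01 had a 95% interval of −0.14 to 0.12, so a fold below 0.905 or above 1.084 lies outside it. Ctnnb1, which encodes beta-catenin and was the most abundant member per kilobase at 144 CPM per kb, had 728, 776 and 766 CPM against 729, 786 and 709 CPM (95% interval −0.12 to 0.18). Apc, Gsk3b and Axin1 had log2 fold changes of −0.06, −0.06 and −0.13 (edgeR adjusted p = 0.764, 0.766 and 0.378). Exons of Ctnnb1 and Axin2 overlap those of Ulk4 and Gm11670 on the opposite strand. Exons of Fzd5, Fzd6, Notum, Kremen2, Dvl1 and Bcl9l also overlap those of other genes on the opposite strand.

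The genes for the making and release of Wnt proteins did not pass. Wls, the carrier that brings Wnt proteins to the cell surface, had 180, 170 and 156 CPM in the knockout and 152, 160 and 142 CPM in the control, a log2 fold change of 0.15 (edgeR adjusted p = 0.298). Porcn, the acyltransferase that adds the lipid of Wnt proteins, had a log2 fold change of 0.24 (edgeR adjusted p = 0.377).

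Among the nuclear effectors, Lef1 had the largest estimate of all 45 members but did not pass the threshold. LEF1 is the factor of hair shaft precursors and anagen follicles, and its gene is itself a Wnt target. Lef1 had 11.7, 5.72 and 9.41 CPM in DE679, DE685 and DE688 and 2.26, 5.05 and 2.94 CPM in DE680, DE684 and DE689, from 275, 99 and 242 counts and 51, 115 and 74 counts. The groups did not overlap, but the libraries with Y-linked transcripts, DE685 and DE684, were nearly level at 5.72 and 5.05 CPM. The log2 fold change was 1.39 (SE 0.35, 95% interval 0.57 to 2.21, edgeR adjusted p = 0.105). Among the 4 libraries with Xist transcripts it was 2.01 (edgeR adjusted p = 0.0287), and whether the difference varies with the sex of the mouse was not tested. Lef1 also passed with DESeq2 (adjusted p = 0.00195). Exons of Lef1 overlap those of Gm43352 on the opposite strand.

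Tcf7 and Tcf7l2, which encode other factors of the TCF family, had log2 fold changes of −0.17 and 0.09 (edgeR adjusted p = 0.414 and 0.649). Tcf7 was below the controls in every knockout library, with 22.4 to 23.0 CPM against 23.2 to 29.1 CPM. Bcl9l, which links beta-catenin to the transcription machinery, had 286, 307 and 300 CPM against 312, 276 and 300 CPM, and its paralog Bcl9 had a log2 fold change of 0.13 (edgeR adjusted p = 0.475).

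Of the 4 corepressor genes, 0 passed. Tle2 had 4.88, 3.87 and 5.87 CPM in the knockout and 2.22, 3.29 and 2.06 CPM in the control, without overlap; the log2 fold change was 0.95 (SE 0.26, edgeR adjusted p = 0.117). Tle1 had 69.0, 73.3 and 92.5 CPM against 52.2, 58.8 and 67.7 CPM, a log2 fold change of 0.39 (edgeR adjusted p = 0.177), and its lowest knockout and highest control libraries were nearly level. Tle3 had 191, 196 and 206 CPM against 196, 193 and 210 CPM, with a 95% interval of −0.15 to 0.13. Tle4 also overlapped between groups (edgeR adjusted p = 0.995). Exons of Tle1 and Tle2 overlap those of Gm11250 and Gm15917 on the opposite strand.

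**Figure D3:**
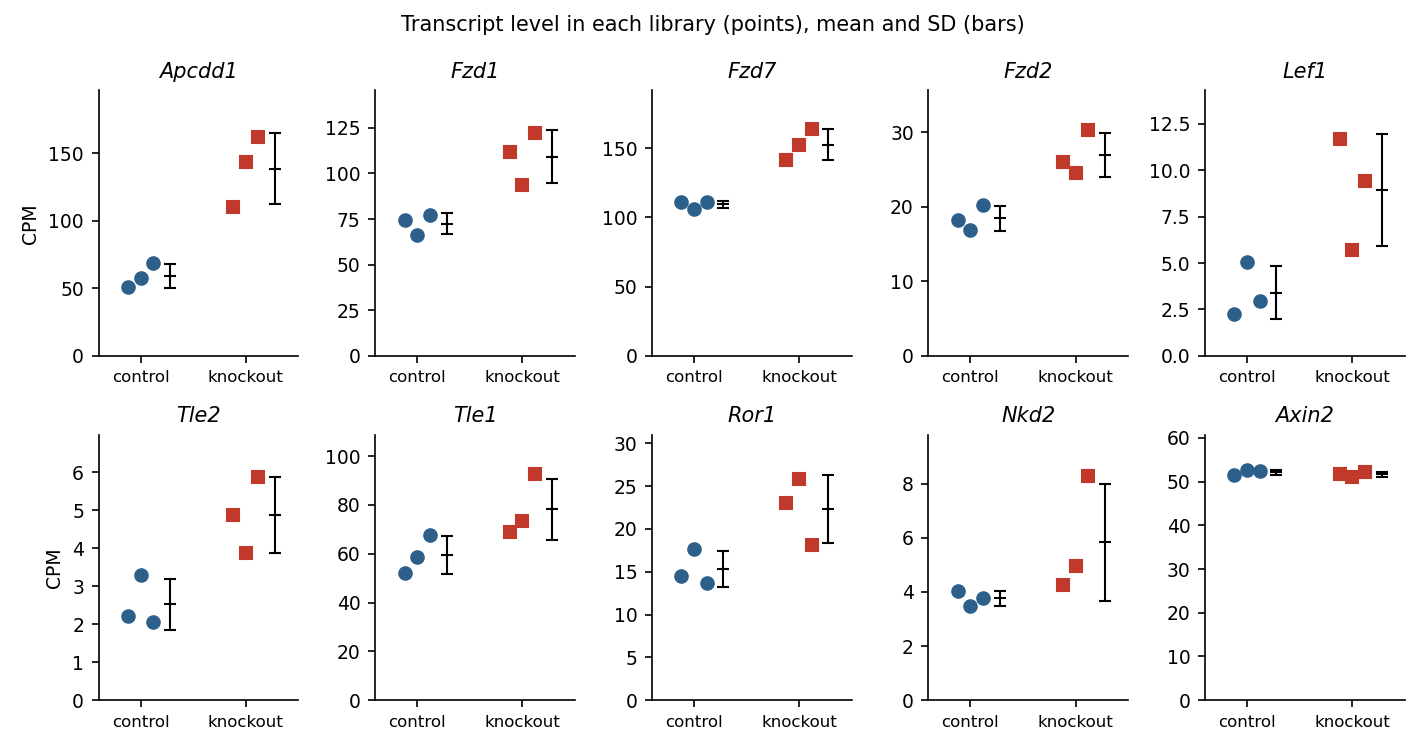
CPM (vertical axis, each panel from 0) in each control library (circles) and knockout library (squares) for 10 members, with the group mean and SD beside the points. Apcdd1, Fzd1, Fzd7 and Fzd2 separate clearly, Lef1, Tle1, Tle2, Ror1 and Nkd2 by a narrower margin between the nearest libraries, and Axin2 is level.

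Across the 45 genes tested, 29 had a 95% interval within 0.5 of 0 on the log2 scale. Of the 23 members that met no condition for naming in full, the log2 fold changes ran from −0.18 (Fzd4) to 0.29 (Ror2), with edgeR adjusted p from 0.278 to 0.995, and 21 of them had overlapping groups; the exceptions were Lrp6 and Tcf7, lower in every knockout library. There were 7 tested members with a mean under 6 CPM, Fzd4, Wif1, Notum, Kremen2, Nkd1, Nkd2 and Tle2, and their intervals were the widest along with that of Lef1.

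Apcdd1, Fzd1 and Fzd7 passed under every other scaling, filter and test run on all 6 libraries. With a filter at a mean of 1 CPM these 3 passed, where 1.75% of all genes did. With DESeq2 7 members passed, Lef1, Fzd2, Ror1 and Tle2 in addition, where 6.05% of all genes passed. In the fits that left out 1 library the number ranged from 0, without DE680 or without DE684, to 2, without DE679. The share of all genes that passed was then 0.585% without DE679, 0.657% without DE685, 0.438% without DE688, 0.592% without DE680, 0.764% without DE684 and 0.758% without DE689. With only the 4 libraries with Xist transcripts, Fzd1 and Lef1 passed, against 0.557% of all genes. The direction of these 7 genes was the same in every fit run.

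**Figure D4:**
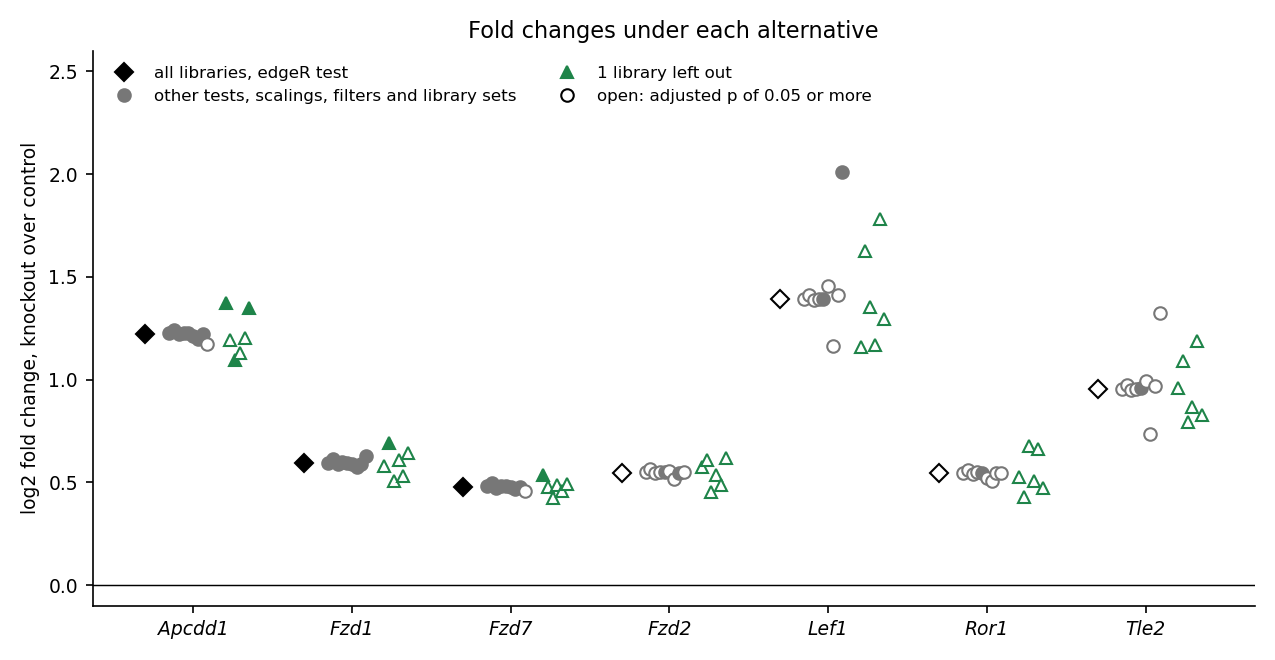
Log2 fold change (vertical axis) of 7 members with all libraries (diamonds), under 9 other tests, scalings, filters and library sets (circles) and with 1 library left out (triangles); filled symbols have an adjusted p under 0.05. Every value is above 0, Fzd1 and Fzd7 vary little, and Lef1 spans 1.16 to 2.01.

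Other genes of the pathway were taken from lists written without regard to how they moved, though with earlier results of these data known. Of 15 Wnt ligand genes tested, 1 rose and 0 fell, where 1.24% of all genes rose and 0.357% fell. The one that rose was Wnt7b, a ligand of epidermis and follicle, with 140, 164 and 165 CPM in the knockout against 65.9, 55.1 and 51.8 CPM (log2 fold change 1.44, SE 0.11, edgeR adjusted p = 0.00148). Of 39 further pathway genes tested, 1 rose and 3 fell, against the same 1.24% and 0.357% of all genes. Ptk7, a pseudokinase of Wnt and planar polarity signalling, rose by 0.35 on the log2 scale (SE 0.05, edgeR adjusted p = 0.0225). Ctnnbip1, an inhibitor that keeps beta-catenin from TCF factors, had 183, 161 and 182 CPM against 234, 245 and 233 CPM, and fell by 0.44 on the log2 scale (SE 0.07, edgeR adjusted p = 0.0256). Dkkl1, a relative of the Dickkopf genes, fell by 0.47 (SE 0.08, edgeR adjusted p = 0.0394), and Daam1, a formin that acts downstream of Dishevelled, fell by 0.27 (SE 0.05, edgeR adjusted p = 0.0489). Of 11 genes listed as Wnt responses in skin, 0 passed the edgeR test. At an unadjusted p under 0.05, 3 were higher (Ccnd1, Lgr5 and Sox9) and 1 lower (Myc), against 9.9% and 9.1% of all genes. Lgr5 and Sox9 are also counted among the bulge markers below.

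Levels of transcripts from other cell types were measured beside these results, and their part in them was not tested. Of 7 listed markers of the hair follicle bulge, 5 had an unadjusted p under 0.05, all higher, where 9.9% of all genes were higher. Among them, Nfatc1 rose past the threshold. The other 2, Cd34 and Tbx1, had log2 fold changes of −0.29 and −0.03 with overlapping groups. Knockout libraries summed to 2121 to 2520 CPM over the 7 markers, control libraries to 1639 to 1914 CPM. Most of each sum was Krt15, at 1689 to 2018 CPM against 1324 to 1600 CPM. All 8 melanocyte markers had log2 fold changes above 0 and 0 passed, with sums of 87.8 to 128 CPM against 61.0 to 88.3 CPM. The 8 immune cell markers likewise had log2 fold changes above 0 with 0 past the threshold, with sums of 66.2 to 159 CPM against 36.0 to 135 CPM. Of 9 fibroblast and dermal papilla markers, Dcn rose, from 20.8 to 40.6 CPM in the control to 112 to 123 CPM in the knockout, while the collagen genes Col1a1, Col1a2 and Col3a1 were at 3.01 to 14.1 CPM in every library and overlapped between groups. The 7 hair matrix and shaft markers found in the table summed to 124 to 178 CPM in the knockout and 127 to 163 CPM in the control. The 6 basal keratinocyte markers summed to 29179 to 33215 CPM against 25769 to 30699 CPM, with 0 of 6 past the threshold. Trp63 was higher in every knockout library, at 639 to 656 CPM against 523 to 568 CPM (edgeR unadjusted p = 0.00445). Krt5 was as well, by a narrow margin (edgeR unadjusted p = 0.0555). Krt14, Col17a1, Itga6 and Itgb4 overlapped between groups, with log2 fold changes of 0.03, 0.07, −0.11 and −0.04. All 5 differentiated keratinocyte markers found in the table had log2 fold changes below 0, from −0.34 (Krt10) to −0.14 (Dsg1a), with 0 past the threshold and overlapping groups, and they summed to 16495 to 23764 CPM in the knockout and 18470 to 32550 CPM in the control. Endothelial, Merkel cell, skeletal muscle and Schwann cell markers each summed to at most 8.95 CPM in any library. In these bulk samples, more cells of a type and more RNA of a gene per cell cannot be told apart.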

How the data were processed

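RNA from tail keratinocytes was sequenced in 6 libraries. The authors deposited estimated counts per gene, not whole for every gene, and a table of normalized signal. The submitters' processing notes name bcl2fastq 2.20, cutadapt 1.18, STAR 2.7.0f, Partek and mm10; the counting tool and its use of strand are not given in the sources used here. The authors' normalized signal equalled the deposited count times a constant per library plus 0.001, within 0.298% of TMM-scaled CPM.

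Columns could be tied to a group but not to a single sample. No 2 libraries of a group were near-copies: their counts gave a chi-square of 11.2 to 36.3 for each degree of freedom. Counts were rounded, filtered with filterByExpr and TMM-scaled (factors 0.975 to 1.03). The 6 libraries were fitted together with glmQLFit and glmQLFTest (edgeR 4.0.16, genotype only), with Benjamini-Hochberg adjustment over 15422 genes and a threshold of 0.05. The standard error (SE) of a log2 fold change was derived from its size and the F statistic of the test. Intervals are 95%, from this SE and a t quantile. The fit was tested on simulated data. Gene positions matched GENCODE M21 (GRCm38) for 96.4% of genes. Members and lists were chosen with earlier results of these data known. Named in full were members with an unadjusted p under 0.05, that with the highest mean CPM in each role group, Fzd9 as not tested and Axin2, added after its values were seen.

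Other settings tried were upper-quartile or relative log expression factors, no filter, a mean of at least 1 CPM, the DESeq2 1.42.0 Wald test, limma 3.58.1 with voom or on log2 of the authors' values plus 1, a covariate for Y-linked transcripts and each library left out.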

Additional observations from a re-analysis of the deposited data

How the results depend on the processing

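Across all genes, 247 passed in the edgeR test, against 879 with DESeq2 and 409 with the covariate for Y-linked transcripts. With the 4 libraries with Xist transcripts only (chosen after seeing the data), 87 passed. With 1 library left out, 69 (without DE688) to 121 (without DE684) passed. These last 2 kinds of fit used fewer libraries, and the cause of the differences in count was not tested. Members that rose numbered 3, against 7 with DESeq2, 4 with the covariate (2.65% of all genes passed there), 2 with the Xist libraries only and 0 to 2 with 1 library left out. Members that fell numbered 0 in every fit, with 2 at an unadjusted p under 0.05 in edgeR and 0 in DESeq2. Scalings moved the median of all genes to at most 0.014 on the log2 scale. No paired analysis was possible because the columns carry no replicate numbers shared between the groups, and the labels do not say which libraries belong together.

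Genes near 0 changed sign, all short of the threshold, and the cause was not tested. With upper-quartile factors Axin2 was at 0.0043 and Tle3 at 0.0072. Sfrp1 was at −0.0026 by limma-voom, at −0.013 when limma used the authors' values, and at −0.0024 given the covariate. With the Xist libraries only, Dvl1 was at −0.0089, Axin2 at 0.00021 and Bcl9l at −0.064. With 1 library left out, Tle3 ranged from −0.042 to 0.028, Bcl9l from −0.042 to 0.044, Sfrp1 from −0.14 to 0.13 and Dvl1 from −0.043 to 0.075. The other 17 members tested and named in full kept their sign in every fit. Fzd9, at 1 to 4 counts per library, was too low to test at this depth.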

Other observations

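The R-spondin receptors other than Lgr4 were looked at after their values were seen. Lgr6, a marker of stem cells in the upper follicle, had 69.8, 56.8 and 71.2 CPM in DE679, DE685 and DE688 and 33.2, 24.3 and 13.1 CPM in DE680, DE684 and DE689. The groups did not overlap, and the log2 fold change was 1.49 (SE 0.29, edgeR adjusted p = 0.0556). Lgr5, a marker of stem cells in the lower follicle, had 22.8, 32.5 and 30.6 CPM against 14.8, 24.96 and 15.2 CPM, with overlapping groups and a log2 fold change of 0.64 (edgeR adjusted p = 0.187). Sostdc1, a secreted antagonist of Wnt and BMP signalling, had 113, 119 and 152 CPM against 85.4, 91.0 and 99.4 CPM (log2 fold change 0.48, edgeR adjusted p = 0.0970).

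Some members varied within the control by more than they differed between the groups. Wif1 had 2.71, 3.82 and 1.19 CPM in DE680, DE684 and DE689, a coefficient of variation of 51.3%, against 3.37% in the knockout. At its 48 to 72 counts per knockout library, counting error alone gives more than 3.37% on average. The lower value for Wif1 is therefore no measure of a steadier level in the knockout. Kremen2 had 3.77, 2.11 and 6.03 CPM in the same libraries, a coefficient of variation of 49.6%. Axin2 had coefficients of variation of 1.11% in the knockout and 1.14% in the control. At its 883 to 1340 counts per library, counting error alone gives more than this on average. These 2 values are therefore no measure of how constant its level is.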
